A study of Mus musculus with 6 samples.

Results

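The genes examined were the 5 NF-κB subunit genes *Nfkb1*, *Nfkb2*, *Rela*, *Relb* and *Rel* and 5 genes of NF-κB feedback, *Nfkbia*, *Nfkbie*, *Nfkbiz*, *Bcl3* and *Tnfaip3*. They were chosen by gene symbol, with earlier results of these data known, and make up 10 of the 20327 symbols counted in each library. Tags of these genes were compared between colonic EGFP+ and EGFP- stromal cells, called IL-11+ and IL-11- fibroblasts, to ask how the transcripts of this pathway differ between cells that express the *Il11* reporter during colitis and cells of the same sorted fraction that do not.

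Both groups came from the colon of C57BL/6 mice carrying the *Il11-Egfp* reporter, a bacterial artificial chromosome transgene, so EGFP marks cells in which the *Il11* control regions of that transgene are active. The animals were 9 to 15 weeks old, drank 1.5% dextran sulfate sodium (DSS), which injures the colonic epithelium, for 5 days and then regular water, and were analyzed on day 7. EGFP+ and EGFP- cells were sorted from live cells negative for Ter119, CD45, CD31 and EpCAM, that is, depleted of erythroid, hematopoietic, endothelial and epithelial cells (n = 3 libraries per group). RNA was read by 5′Tag-seq, in which tags near the 5′ side of polyA transcripts are counted, with 1022851 to 1169817 tags per library. No group without DSS and no wild-type group was compared here.

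NF-κB is a family of dimeric transcription factors held inactive in the cytoplasm by IκB proteins until receptors for cytokines such as TNF and IL-1, or Toll-like receptors, activate the IκB kinase complex. The IκB protein is then degraded, the dimer enters the nucleus, and among the genes it induces are those of its own inhibitors, so that transcripts such as *Nfkbia* and *Tnfaip3* form a negative feedback loop. In colitis, stromal cells respond to this pathway with chemokines, colony-stimulating factors and prostaglandin synthesis.

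*Tnfaip3* and *Nfkbia* were higher in IL-11+ fibroblasts, by 1.98-fold and 1.66-fold, whereas none of the 5 subunit genes passed the test. All 10 genes reached the minimum of 10 tags in 3 or more libraries and were tested among 9334 genes with edgeR's quasi-likelihood test, with p adjusted over all 9334 by Benjamini-Hochberg. With an adjusted p under 0.05 alone, 2 of the 10 were higher, where 6.84% of all tested genes were, and 0 were lower, where 8.70% were. When a fold change over 2 was also required, 0 of the 10 were higher and 0 lower in edgeR, against 3.44% and 6.37% of all tested genes, and DESeq2 with both criteria gave 1 higher, *Tnfaip3*, and 0 lower, against 3.04% and 5.17%. At an unadjusted p under 0.05, 3 of the 10 were higher and 1 was lower, where 12.2% and 14.5% of tested genes were, and 0 of these 4 had a fold change over 2. The groups did not overlap for 3 members that were higher and for 1 that was lower, where 14.5% and 16.7% of tested genes did so. Over the 10 members the median log2 fold change was 0.34, and over all tested genes it was -0.01. With 10 genes these shares are coarse, and a share near that of all tested genes is no result about the members, so each gene is given with its own values. The fits above did not pair libraries of the same number. An edgeR fit with a block on replicate number gave an adjusted p of 3.45e-07 for *Tnfaip3* and 2.69e-05 for *Nfkbia*, both higher. It gave 0.0337 for *Nfkbiz*, which was lower. Values of the libraries of a group are given in the order of replicates 1, 2 and 3. In sorted bulk samples, fewer cells of a type and less RNA per cell cannot be told apart.

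**Figure D1:**
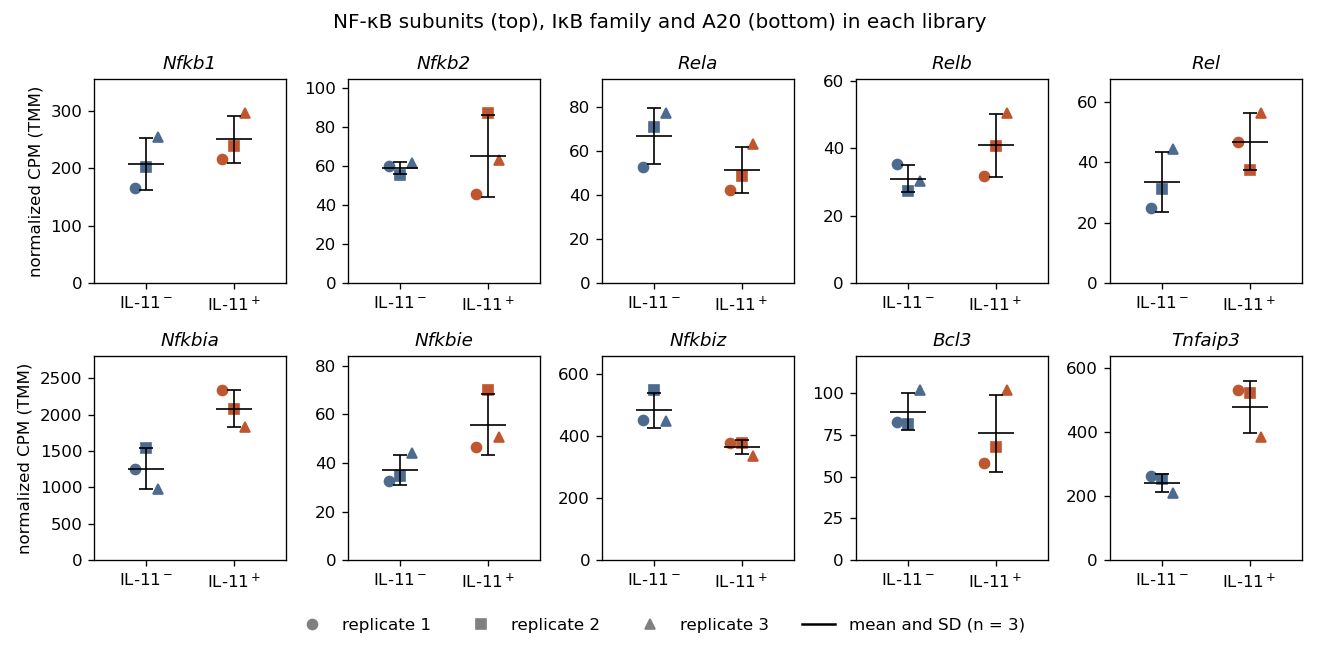
Normalized CPM (tags scaled to library size by TMM) of each gene in the 6 libraries, with subunits in the upper row and the IκB family and A20 in the lower row, symbols marking replicates 1 to 3, and lines giving mean and SD (n = 3). Every axis starts at 0, and in the *Tnfaip3* panel all IL-11+ libraries (385 to 530) lie above all IL-11- libraries (210 to 263).

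*Rela*, on the plus strand of chromosome 19 (5637483 to 5648130 in GRCm38), encodes p65, the subunit with a transactivation domain that pairs with p50 in the canonical pathway. It had 55, 75 and 94 tags across the IL-11- libraries and 40, 48 and 66 across the IL-11+ libraries. The ranges overlapped, since the highest IL-11+ library exceeded the lowest IL-11- library, although each IL-11+ library had fewer tags than the IL-11- library of the same number. The log2 fold change was -0.38 (SE 0.219, adjusted p = 0.291), with a 95% interval from -0.84 to 0.08 that leaves out a 2-fold difference in either direction.

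*Nfkb1*, on the minus strand of chromosome 3 (135584655 to 135691547), encodes p105, the precursor of p50, which itself can act as an inhibitor before it is processed. Its tags were 174, 214 and 311 across the IL-11- libraries and 204, 235 and 311 across the IL-11+ libraries. Replicate 3 was highest in both groups, and the spread within a group was as wide as the distance between the groups. In the same-numbered pairs the IL-11+ library was higher after scaling, in each of the 3 by 1.16-fold to 1.30-fold, and the adjusted p with the replicate block was 0.203. The log2 fold change was 0.27 (SE 0.187, adjusted p = 0.398), with an interval from -0.12 to 0.66.

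*Rel*, on the minus strand of chromosome 11 (23736847 to 23770970), encodes c-Rel, best known from lymphoid cells. It had 26, 33 and 54 tags across the IL-11- libraries and 44, 37 and 59 across the IL-11+ libraries. The groups overlapped, and with so few tags the interval of the log2 fold change of 0.48 (with SE 0.259, adjusted p = 0.256) was wide, from -0.07 to 1.02, so that a doubling could not be told from no difference at this depth. *Rel* was higher in the IL-11+ library of each of the 3 same-numbered pairs after scaling, by 1.88-fold, 1.21-fold and 1.27-fold.

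The 2 genes of the noncanonical pathway are *Nfkb2*, whose product p100 is processed to p52, and *Relb*, whose product pairs with p52. *Nfkb2*, on the plus strand of chromosome 19 (46304320 to 46312385), had 63, 59 and 75 tags across the IL-11- libraries and 43, 86 and 66 across the IL-11+ libraries. The lowest and the highest library were both IL-11+, and the IL-11- libraries lay between them, so the SD of normalized CPM was 3.13 for IL-11- and 21.0 for IL-11+ fibroblasts (n = 3). The log2 fold change of 0.14 (SE 0.224, adjusted p = 0.748) became -0.11 without IL-11+ replicate 2, so no direction can be given for *Nfkb2*. *Relb*, on the minus strand of chromosome 7 (19606217 to 19629438), had 37, 29 and 37 tags across the IL-11- libraries and 30, 40 and 53 across the IL-11+ libraries. IL-11+ replicate 1 lay within the IL-11- range and the other two above it, for a log2 fold change of 0.41 (with SE 0.251, adjusted p = 0.326) and an interval from -0.12 to 0.93.

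*Nfkbia*, on the minus strand of chromosome 12 (55489410 to 55492647), encodes IκBα, which binds p65 dimers, keeps them in the cytoplasm and is resynthesized after each round of activation. It had 1313, 1629 and 1189 tags across the IL-11- libraries and 2204, 2049 and 1918 across the IL-11+ libraries. The groups did not overlap, also after scaling, where the lowest IL-11+ library stood at 1829 and the highest IL-11- library at 1535 normalized CPM. Mean normalized CPM was 1255 ± 279 against 2082 ± 253 (SD, n = 3). The log2 fold change was 0.73 (SE 0.189, 95% interval 0.33 to 1.13, adjusted p = 0.0116), and a fold change of 2 lies inside this interval.

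*Tnfaip3*, on the minus strand of chromosome 10 (19000910 to 19015657), encodes A20, a ubiquitin-editing enzyme that ends signalling from TNF receptors and Toll-like receptors upstream of the IκB kinases. It had 275, 267 and 256 tags across the IL-11- libraries and 500, 513 and 404 across the IL-11+ libraries. The IL-11- libraries were close together, and the lowest IL-11+ library was well above each of them. Mean normalized CPM was 241 ± 27.6 against 479 ± 81.0 (SD, n = 3), and the log2 fold change was 0.99 (SE 0.176, 95% interval 0.62 to 1.36, adjusted p = 0.000596). The same-numbered pairs differed by 2.02-fold, 2.07-fold and 1.83-fold. The estimate stands at the edge of the fold-change threshold, which it passed in 7 of 15 other fits, with log2 fold changes from 0.90 without IL-11- replicate 3 to 1.12 without IL-11+ replicate 3. It also passed without IL-11- replicate 1 (1.05) and without IL-11- replicate 2 (1.03), and its adjusted p was under 0.05 in each of the 15.

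*Nfkbie*, on the plus strand of chromosome 17 (45555703 to 45563169), encodes IκBε, a slower-acting inhibitor of the same class as IκBα. It had 34, 37 and 54 tags across the IL-11- libraries and 44, 69 and 53 across the IL-11+ libraries. The raw tags overlapped, but after scaling to library size the groups separated, by a margin of 44.3 against 46.6 normalized CPM. The log2 fold change of 0.58 (SE 0.235, 95% interval 0.08 to 1.07) did not pass the adjustment over all genes (adjusted p = 0.114).

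*Nfkbiz* and *Bcl3* encode the atypical IκB proteins IκBζ and BCL3, which act in the nucleus on p50 or p52 dimers and can raise or lower transcription. *Nfkbiz*, on the minus strand of chromosome 16 (55811375 to 55838899), had 472, 581 and 546 tags across the IL-11- libraries and 357, 371 and 353 across the IL-11+ libraries. All IL-11+ libraries were below all IL-11- libraries, the opposite order to *Nfkbia* and *Tnfaip3*. Mean normalized CPM was 482 ± 56.5 against 364 ± 23.6 (SD, n = 3), and the log2 fold change was -0.41 (SE 0.163, 95% interval -0.75 to -0.06, adjusted p = 0.107). In a fit that blocks on replicate number, taken as the mouse, the adjusted p was 0.0337, and with scaling by library size only it was 0.0426, within a range from 0.0337 to 0.388 over all alternatives. In the blocked fit 2 members were higher and 1 was lower at an adjusted p under 0.05, where 9.33% and 11.2% of tested genes were. *Bcl3*, on the minus strand of chromosome 7 (19808462 to 19822770), had 87, 87 and 124 tags across the IL-11- libraries and 55, 67 and 107 across the IL-11+ libraries. Replicate 3 was highest in both groups and reached the same level in both after scaling, 102 normalized CPM, and the log2 fold change was -0.22 (SE 0.210, adjusted p = 0.553).

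**Figure D2:**
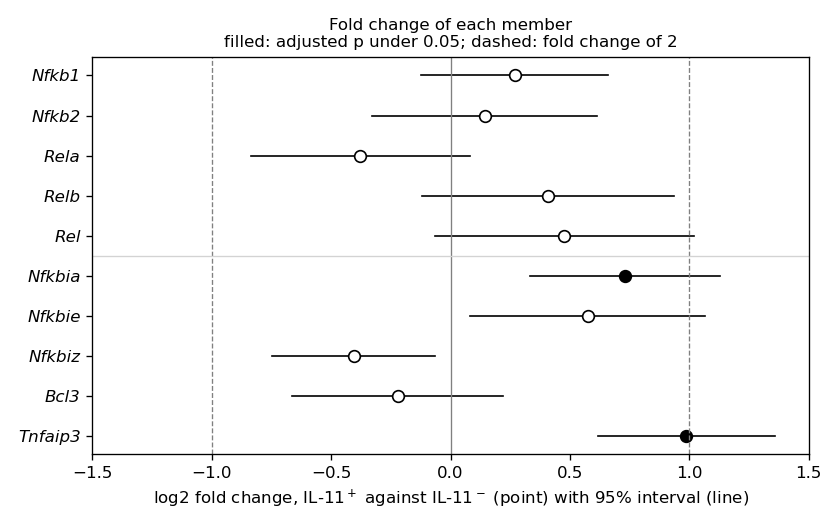
Log2 fold change of each gene, IL-11+ against IL-11- fibroblasts, with its 95% interval from the edgeR fit (n = 3 per group), where filled points have an adjusted p under 0.05 and dashed lines mark a fold change of 2. The filled points are *Nfkbia* (0.73) and *Tnfaip3* (0.99), and the intervals of the subunits cross 0.

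A ratio of tags within a library does not depend on scaling between libraries, so the inhibitor transcripts were also set against subunit transcripts of the same library. There were 23.9, 21.7 and 12.6 *Nfkbia* tags for each *Rela* tag in IL-11- and 55.1, 42.7 and 29.1 in IL-11+ replicates 1, 2 and 3. The ranges did not overlap, and replicate 3 had the lowest ratio in both groups. The *Nfkbia* ratios to *Nfkb1*, however, were 7.55, 7.61 and 3.82 for IL-11- and 10.8, 8.72 and 6.17 for IL-11+ libraries, and IL-11+ replicate 3 fell within the IL-11- range. Within each same-numbered pair, the IL-11+ ratio was still the higher one. For *Tnfaip3* against *Rela*, the ratios were 5.00, 3.56 and 2.72 in IL-11- and 12.5, 10.7 and 6.12 in IL-11+ replicates. These were again separate. Against *Nfkb1*, the *Tnfaip3* ratios were 1.58, 1.25 and 0.823 for IL-11- and 2.45, 2.18 and 1.30 for IL-11+ libraries, so that IL-11+ replicate 3 again fell within the IL-11- range, although the IL-11+ ratio was the higher one in each same-numbered pair. These ratios compare libraries, not the abundance of different transcripts, because tag yield can differ between genes.

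The 10 genes lie on 8 chromosomes, with *Nfkb2* and *Rela* both on chromosome 19, and *Relb* and *Bcl3* on chromosome 7, 179023 bases apart. Of 50-nt windows in the first 300 nt of the annotated transcripts, 12 of 911 from *Relb* (1.32%) also occurred in transcripts of other genes; how many of its tags fell there was not analysed here. For the other 9 genes, 0 such windows were found in another gene. *Nfkb1* has 1 annotated gene within its bounds on the same strand, and *Nfkb2* and *Bcl3* each overlap 2 on the opposite strand, whose reads the mapping in one orientation would not count.

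Since feedback genes are induced through κB sites, the 250 bases before RefSeq starts were searched for the letters GGNNTTTCC, found within many κB sites, on both strands (GGAAANNCC on the other). RefSeq promoter windows (GRCm38.p6) were matched for 7 of the 10 genes, with 10 windows in all; *Nfkb1*, *Relb* and *Nfkbiz* had no entry. The letters occurred in 6 of the 10 windows, from 5 of the 7 genes, and in 4.93% of all 32851 promoter windows. The pair of genes that passed the test had 2 matches each in one RefSeq window, and these windows are shown with the matches in capitals. The *Nfkbia* window is chr12:55492648-55492897 and the *Tnfaip3* window is chr10:19015411-19015660, both read from the minus strand; the latter lies almost wholly within the GENCODE bounds of the gene given above, since the RefSeq start is inside them.
Nfkbia: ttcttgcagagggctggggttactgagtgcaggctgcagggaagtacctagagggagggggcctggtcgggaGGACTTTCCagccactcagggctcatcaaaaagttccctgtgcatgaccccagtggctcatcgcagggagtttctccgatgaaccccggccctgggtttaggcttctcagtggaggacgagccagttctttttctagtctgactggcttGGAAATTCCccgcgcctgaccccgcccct
Tnfaip3: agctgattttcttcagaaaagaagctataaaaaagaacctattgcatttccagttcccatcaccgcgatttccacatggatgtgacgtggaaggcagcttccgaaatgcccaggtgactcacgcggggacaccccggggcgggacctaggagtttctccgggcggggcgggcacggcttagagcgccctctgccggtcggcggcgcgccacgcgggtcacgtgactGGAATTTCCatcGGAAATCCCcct
In *Nfkbia* the nearer match ends 20 bases before the RefSeq start and the other 169 bases before it. In *Tnfaip3* the matches end 3 and 15 bases before the RefSeq start of that window, and a further *Tnfaip3* window, at chr10:19011964-19012213, held 0.

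The same letters were also present in windows of 3 members that did not pass the test, so their presence did not separate the genes that differed between the groups from those that did not pass. *Nfkb2* had a match in 2 of its 3 windows, at chr19:46304727-46304735 and chr19:46305706-46305714 on the plus strand. *Rel* had a match at chr11:23771052-23771060 and *Bcl3* at chr7:19822851-19822859, both on the minus strand, and *Rela* and *Nfkbie* had 0. These matches are shown with up to 10 bases on each side.
Nfkb2, upstream window: gggccgaaagGGGCTTTCCc
Nfkb2, downstream window: ggtattttcgGGACTTTCCtaagcagcac
Rel: gtaagcagcgGGAAATCCCcccccctccc
Bcl3: cgcgggtccaGGAAACCCCtggggcggac
A match of letters does not show that a factor binds there. Other forms of κB site were not searched, so a window with 0 matches may still hold one.

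The other genes of the pathway were described from lists of ligands, receptors, adaptors and kinases, further inhibitors and target genes. These lists were chosen with earlier results of these data known, so their counts describe the listed genes only. Among 11 ligand genes, *Tnf* had 1, 3 and 2 tags across the IL-11- libraries and 3, 1 and 1 across the IL-11+ libraries, at or under the floor of 3 tags, and 5 of the 11 did not exceed this floor in any library. Of the 4 ligands tested, *Tnfsf11*, encoding RANKL, rose from 7.05 ± 3.78 to 79.6 ± 32.9 normalized CPM (SD, n = 3; log2 fold change 3.49, adjusted p = 3.93e-06), and *Il33* had a log2 fold change of -0.07 (adjusted p = 0.869). *Tnfsf13b*, encoding BAFF, was 1.87-fold higher (adjusted p = 0.0475), a call lost with library size only (0.0946), iterative TMM (0.0502) and DESeq2 (0.0738) and without IL-11- replicate 1, IL-11- replicate 2, IL-11+ replicate 2 or IL-11+ replicate 3 (0.101 to 0.264). The median log2 fold change of the 4 was 0.56. Thus the transcripts of the classical inducer TNF were not detectable above the floor in either group of sorted cells. RANKL, a TNF family ligand that can activate the noncanonical pathway, was among the higher genes. Its receptor gene *Tnfrsf11a* had 3, 3 and 1 tags across the IL-11- libraries and 0, 1 and 1 across the IL-11+ libraries, at or under the floor. Ligands made by cells that the sort removed were not measured here.

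Of 10 tested receptors, 2 were higher, where 6.84% of all tested genes were. *Il1rl1*, the IL-33 receptor, went from 16.1 ± 8.89 to 866 ± 385 normalized CPM (SD, n = 3; log2 fold change 5.75, adjusted p = 8.00e-09), and *Il1r1*, the receptor for IL-1, from 231 ± 6.81 to 515 ± 28.7 (SD, n = 3; log2 fold change 1.15, adjusted p = 3.95e-05). The TNF receptor gene *Tnfrsf1a* (-0.23, adjusted p = 0.455) and *Tnfrsf12a*, the TWEAK receptor (0.23, adjusted p = 0.415), did not pass, nor did *Tlr4* (-0.52, adjusted p = 0.115, and 0.0460 with the block), which passed without IL-11+ replicate 3 (0.0286). The median over the 10 receptors was 0.11.

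Of the 27 tested adaptor and kinase genes, which carry the signal from receptors to NF-κB, 2 were lower and 25 did not pass at an adjusted p under 0.05, with a median log2 fold change of -0.18. As 8.70% of all tested genes were lower, this count is no result about the list. The lower genes were *Myd88*, the adaptor of IL-1 and Toll-like receptors, and *Ripk1*, a kinase recruited to TNF receptor 1. *Myd88* had 127, 117 and 140 tags across the IL-11- libraries and 59, 55 and 64 across the IL-11+ libraries (log2 fold change -0.95, SE 0.174, adjusted p = 0.000744), and *Ripk1* had 122, 107 and 108 against 51, 54 and 63 tags (log2 fold change -0.85, SE 0.185, adjusted p = 0.00318). For both, all IL-11+ libraries were below all IL-11- libraries, with fold changes under 2, although that of *Myd88* was over 2 with library size only (-1.03). The kinase subunit genes *Chuk* (0.17, adjusted p = 0.637) and *Ikbkb* (-0.29, adjusted p = 0.601) did not pass, and *Ikbkg* passed with the block alone (-1.14, adjusted p = 0.103 without and 0.0482 with the block). The genes of this list with the highest normalized CPM among those that did not pass, *Birc3* and *Tab2*, had log2 fold changes of -0.36 (adjusted p = 0.175) and 0.33 (adjusted p = 0.273).

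Of 18 further tested inhibitors, 2 were higher, where 6.84% of all tested genes were, and 16 did not pass. *Tnip1* encodes ABIN-1, a ubiquitin-binding partner of A20, and had 47, 81 and 63 tags across the IL-11- libraries and 125, 117 and 121 across the IL-11+ libraries. The groups were separate, with a log2 fold change of 1.08 (with SE 0.202, adjusted p = 0.000846) that went under the fold-change threshold without IL-11- replicate 1 (0.94). *Rnf11*, whose product is a subunit of the A20 complex, had 105, 119 and 107 against 170, 148 and 156 tags (log2 fold change 0.68, SE 0.172, adjusted p = 0.0106, and 0.0510 without IL-11+ replicate 1). *Tax1bp1*, which encodes another A20 partner, did not pass (log2 fold change -0.019, adjusted p = 0.960). The median over the 18 was 0.17.

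Among 25 tested canonical target genes, 13 were higher and 2 were lower at an adjusted p under 0.05, where 6.84% and 8.70% of all tested genes were, and 10 of the 13 also had a fold change over 2 (3.44% of all tested genes). The median log2 fold change was 0.64. As the list was chosen with earlier results of these data known, these shares do not test canonical targets as a class. The paper had already reported *Cxcl5*, *Ptgs2* and *Saa3* as elevated in IL-11+ fibroblasts. The neutrophil chemokines *Cxcl5* (3.43, adjusted p = 1.04e-08) and *Cxcl2* (2.48, adjusted p = 4.98e-07), the growth factor *Csf3* (3.35, adjusted p = 1.11e-07), *Ptgs2*, encoding the prostaglandin synthase COX-2 (2.10, adjusted p = 3.94e-07), and the acute-phase gene *Saa3* (3.11, adjusted p = 4.17e-06) were the higher genes with the smallest p. The targets did not all move one way. *Cxcl10* (-0.90, adjusted p = 0.0250) and *Gadd45b* (-0.83, adjusted p = 0.0115) were lower, and *C3*, the complement component, had a log2 fold change of -0.52 (adjusted p = 0.0678, 0.0238 with library size only, 0.00226 with the block and 0.0403 without IL-11+ replicate 2). Several of the smaller differences kept their direction but not an adjusted p under 0.05 when single libraries were left out. In the fits without a library named next, the log2 fold change was -0.77 to -0.53 for *Cxcl10*. It was -0.74 to -0.61 for *Gadd45b* and 0.51 to 0.60 for *Cxcl1*. The adjusted p of *Cxcl10* was 0.0868 to 0.233 without IL-11- replicate 2, IL-11+ replicate 1 or IL-11+ replicate 3, that of *Gadd45b* 0.0503 to 0.0802 without IL-11- replicate 1, IL-11- replicate 2 or IL-11+ replicate 3, and that of *Cxcl1* (0.63, adjusted p = 0.0248) 0.0693 to 0.149 without IL-11- replicate 1, IL-11- replicate 2 or IL-11+ replicate 3, and 0.0502 with library size only. With the block, 14 targets were higher and 4 were lower, against 9.33% and 11.2% of all tested genes. Of 2 tested targets of the noncanonical pathway, the B cell chemokine *Cxcl13* was higher (1.21, adjusted p = 0.00883, but 0.131 in DESeq2 and 0.0759 without IL-11+ replicate 2). Its fold change was under 2 without IL-11+ replicate 2 (log2 fold change 0.93) and without IL-11- replicate 3 (0.94). *Cxcl12* had a log2 fold change of 0.52 (adjusted p = 0.0850, 0.0230 with no filter beyond 1 tag, 0.00313 with the block and 0.0467 without IL-11+ replicate 1).

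**Figure D3:**
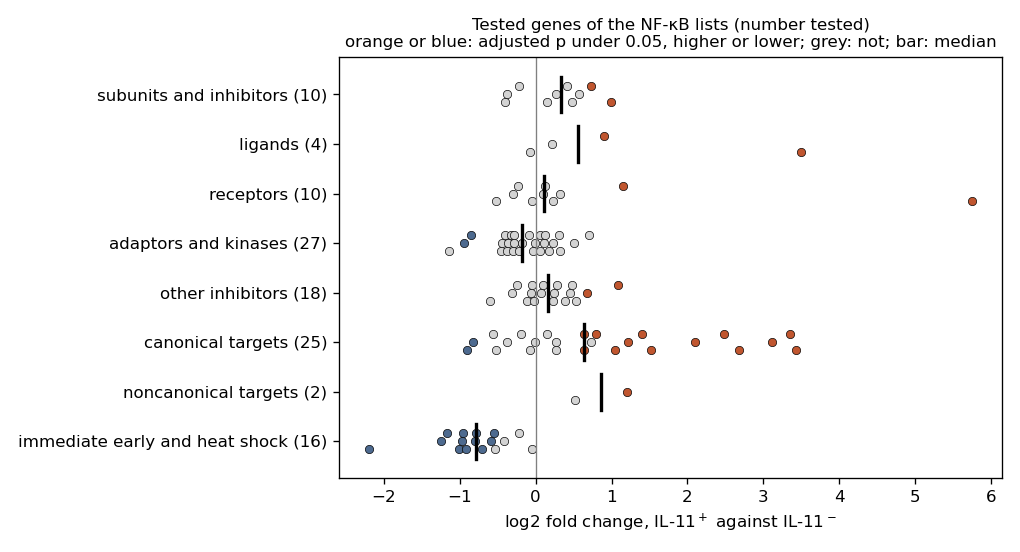
Log2 fold changes, IL-11+ against IL-11- fibroblasts, of the tested genes in each list (points) with their median (bar), colored where the adjusted p from edgeR was under 0.05. The median was 0.64 over canonical targets, -0.18 over adaptors and kinases and -0.79 over immediate early and heat shock genes.

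The listed immediate early and heat shock genes, which also respond to tissue dissociation, moved with the groups. *Ier3*, another immediate early gene, was placed among the canonical targets instead and was higher (log2 fold change 1.52, adjusted p = 1.92e-05 in edgeR). Of the 16 listed, all were tested and 12 were lower at an adjusted p under 0.05 (8.70% of all tested genes), 4 of them with a fold change over 2 (6.37%). With the block, 14 of the 16 were lower (11.2% of all tested genes). The median log2 fold change of the 16 was -0.79. Their summed level was 33579, 35306 and 27620 normalized CPM across the IL-11- libraries and 18300, 20731 and 18405 across the IL-11+ libraries, with *Egr1* the most abundant (-0.54, adjusted p = 0.0554, but under 0.05 in 6 of the 15 alternatives, from 0.00288 with the block to 0.0481 with 10 tags in at least 1 library). The lower genes included *Atf3* (-2.19, adjusted p = 1.27e-05), *Btg2* (-1.25, adjusted p = 6.23e-05), *Zfp36*, whose product destabilizes cytokine transcripts (-1.17, adjusted p = 0.000119), *Junb* (-1.01, adjusted p = 0.000208; fold change under 2 with either looser filter and without IL-11- replicate 2, IL-11+ replicate 1 or IL-11+ replicate 3, at the least -0.94) and *Fos* (-0.95, adjusted p = 0.000826; fold change over 2 with library size only and without IL-11- replicate 3 or IL-11+ replicate 2). *Nfkbia* and *Tnfaip3*, which are themselves rapidly induced, were thus higher in the libraries in which these genes were lower, and *Nfkbiz* and *Myd88* had their lower values there. Other measures of the libraries also separated the groups. Mitochondrial genes and ribosomal RNA made up 14.6%, 15.2% and 13.8% of tags across the IL-11- libraries and 12.1%, 11.5% and 11.1% across the IL-11+ libraries, and 16028, 15845 and 15925 against 15196, 14993 and 15167 gene symbols had at least 1 tag. Leaving out the mitochondrial and ribosomal RNA rows changed no member's call. The part of these differences in the values of the NF-κB genes was not tested.

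Cell type markers were read in the same libraries. All 9 fibroblast markers were tested, their summed level was 22122, 22107 and 24635 normalized CPM across the IL-11- libraries and 42227, 33957 and 30313 across the IL-11+ libraries, and *Dcn* was the most abundant. At an adjusted p under 0.05, 4 of the 9 were higher and 1, *Lum*, was lower (log2 fold change -0.64, adjusted p = 0.0378), where 6.84% and 8.70% of all tested genes were. With the block, 5 were higher and 1 was lower, against 9.33% and 11.2% of all tested genes. Of 12 smooth muscle and pericyte markers, 10 were lower in IL-11+ fibroblasts and 2, *Kcnj8* and *Abcc9*, were higher at an adjusted p under 0.05, where 8.70% and 6.84% of all tested genes were. Their summed level was 5015, 5300 and 5914 normalized CPM across the IL-11- libraries and 1032, 938 and 1023 across the IL-11+ libraries, with *Rgs5* the most abundant. The glia markers *Sox10* (2, 3 and 5 tags in IL-11- replicates) and *S100b* (3, 9 and 4), both too low to be tested, had 0 tags in all 3 IL-11+ libraries. The IL-11- libraries thus held more tags of contractile marker genes, and the part of those cells in the NF-κB values was not tested.

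Markers of the leukocytes, endothelial cells and epithelial cells that the sort was set to remove were low. The 17 leukocyte markers summed to 26.7, 42.4 and 37.0 normalized CPM in IL-11- and 45.6, 21.3 and 23.8 in IL-11+ replicates 1, 2 and 3. *Cd68* was the most abundant of them over both groups pooled, but within neither group. *Ptprc*, encoding CD45, had 1, 2 and 7 against 0, 3 and 0 tags. The 10 endothelial markers summed to 49.7, 34.9 and 56.7 against 24.4, 17.3 and 16.2 normalized CPM, and *Tek*, the most abundant and the only one tested, was lower (log2 fold change -1.59, adjusted p = 0.00850). *Pecam1*, encoding CD31, had 1 tag in IL-11- replicate 2 and 0 in the other 5 libraries. The 10 epithelial markers summed to 7.64, 3.77 and 27.9 against 4.24, 6.09 and 8.58. *Lgr5* was the most abundant of them over both groups pooled, but not within the IL-11- libraries. *Epcam* had at most 1 tag per library. Mesothelial markers, which the sort did not address, summed to 13.4, 4.71 and 15.6 against 0, 0 and 1.91, led by *Wt1*. Erythroid genes were uneven, at 98.3, 0 and 318 in IL-11- and 20.1, 2.03 and 20.03 in IL-11+ replicates 1, 2 and 3, led by *Hbb-bs*. With IL-11- replicate 3, the library with the highest erythroid sum, left out, the log2 fold change was 0.90 for *Tnfaip3* (adjusted p = 0.00324) and 0.58 for *Nfkbia* (adjusted p = 0.0460).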

How the data were processed

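According to the methods and submitters' processing notes, the authors trimmed reads (Cutadapt 1.18), aligned them to mm10 RefSeq RNA in a single orientation (Bowtie2 2.2.5) and deposited counts of tags per gene symbol without normalization. How tags mapping to several genes were treated is not given in the sources used here. The 9334 genes that reached 10 tags in 3 or more of the 6 libraries were scaled by TMM and compared in R 4.3.3 with edgeR 4.0.16 (glmQLFit and glmQLFTest, two-sided, Benjamini-Hochberg adjustment). Normalized CPM uses the scaled library sizes. SE and 95% intervals come from this fit, and the fit was tested on simulated data. A floor of 3 tags stands at 2.56 to 2.93 CPM; such floors cover counting error only, since PCR copies of a tag are not separate molecules.

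Libraries of one number were taken as pairs: the methods name 3 mice, and over the 5063 genes averaging 30 tags or more their deviations from group means correlated (r of 0.23, 0.19 and 0.27; genes are not independent replicates). Members and lists were chosen with earlier results of these data known. Genes named besides the members were, of each list, up to 5 called in each direction by p and 2 not called with the highest level, and of marker lists the most abundant. *Tnf*, *Tnfrsf11a*, *Tlr4*, *Myd88*, *Ripk1*, *Chuk*, *Ikbkb*, *Ikbkg*, *Cxcl10*, *Gadd45b* and *Ier3* were chosen after their values were seen. Some list genes were not analysed here. Positions come from GENCODE mouse release M21 (GRCm38). Alternatives were RLE, library size only or iterative TMM (3 iterations, first-round adjusted p of 0.1, at least 5% of genes left out) as scaling, the edgeR exact test after iterative TMM, DESeq2 1.42.0, other filters, the replicate block, leaving out mitochondrial genes and ribosomal RNA, and leaving out each library among the genes tested with all 6.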

Additional observations from a re-analysis of the deposited data

How the results depend on the processing

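The higher values of *Tnfaip3* and *Nfkbia* kept their direction and an adjusted p under 0.05 in all 15 other fits (largest adjusted p 0.00612 and 0.0490), and the 5 subunit genes, *Nfkbie* and *Bcl3* did not pass in any of them. Whether a member was called with a fold change over 2 depended on *Tnfaip3*. The number of members called higher, 0 in the fit reported, was 1 with RLE size factors, DESeq2, no filter beyond 1 tag, and 10 tags in at least 1 library, 0 to 1 with a library left out, and 2 with the adjusted p alone. The number of members with an adjusted p under 0.05 that were lower, 0 in the fit reported, was 1 with library size only and 1 with the replicate block, *Nfkbiz* in both. The block changed no other member's call. Genes called higher numbered 638 with the adjusted p alone, against 321. Signs turned for *Nfkb2* (-0.11 to 0.35 with a library left out, negative without IL-11+ replicate 2), *Il33* (-0.26 to 0.16, positive without IL-11- replicate 3) and *Tax1bp1* (0.022 with no filter beyond 1 tag, and -0.081 to 0.068 with a library left out, positive without IL-11- replicate 1 or IL-11+ replicate 1). The cause was not tested.

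The 3 libraries per group and at most 1169817 tags in each limit genes such as *Rel*, *Relb* and *Nfkbie*, with 26 to 69 tags, whose intervals of the log2 fold change reach up to 1.02, 0.93 and 1.07. Transcript levels say nothing of nuclear NF-κB or of protein.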
